A study of Mus musculus with 8 samples.

Results

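Aldo-keto reductases are soluble enzymes that reduce aldehydes and ketones to alcohols, mostly with NADPH. In liver they act on sugars, on steroids and bile acid intermediates, on reactive aldehydes left by lipid oxidation and on drugs. They share the demand for NADPH with thioredoxin reductase and glutathione reductase, and in several species some family members are known targets of Nrf2, the transcription factor that answers electrophiles and oxidants.

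The genes taken were Akr1a1, Akr1b3, Akr1b7, Akr1b8, Akr1c6, Akr1c13, Akr1c14, Akr1c19, Akr1e1 and Akr7a5, with every probe set that the platform annotation pairs with exactly 1 of them. This gave 11 of the 22690 probe sets on the array, for 7 of the 10 genes. No probe set is paired with Akr1b3, Akr1b7 or Akr1c19 there, and these 3 genes were not analysed here. All 11 probe sets passed the filter on low values, a log2 limit of 3.38.

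Liver RNA came from 4 TrxR1/Gsr-null and 4 WT mice, all female, 4 weeks old and on a C57BL/6J background, with 1 Affymetrix 3′ array per animal. The first genotype is labelled as null for thioredoxin reductase of the cytosol (TrxR1, gene Txnrd1) together with glutathione reductase (Gsr), and its labels name neither a driver of the deletion nor the cells it reached. Values are log2 expression after GCRMA, folds are powers of 2 of the difference between group means, and differences are TrxR1/Gsr-null minus WT. A difference was called when its limma p, adjusted by the Benjamini-Hochberg method over all 7534 genes tested, was below 0.05. The number of arrays limits the precision.

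Gsr averaged 6.01 ± 0.22 in TrxR1/Gsr-null and 7.16 ± 0.09 in WT livers (SD, n = 4 each) at its brighter probe set, and Txnrd1 averaged 11.92 ± 0.19 and 9.82 ± 0.17 at its 1 probe set above the limit, so that the transcript of Txnrd1 read there was higher in livers labelled null for it. Where that probe set lies relative to the deleted part is not given in the sources used here. Values spread less on the arrays of WT replicates 3 and 4 (interquartile range 3.97 and 3.74) than elsewhere (4.31 to 4.44), and some results are given without them too. All 8 measured hepatocyte markers were above the limit and none was called, although all 8 differences were negative and their summed level, in log2, lay between 15.99 and 16.41 in TrxR1/Gsr-null and between 16.50 and 16.71 in WT livers. Of the markers of other liver cells, adrenal cortex and exocrine pancreas, 1 was called, the epithelial adhesion gene Epcam (3.87 ± 0.34 in TrxR1/Gsr-null and 2.93 ± 0.33 in WT livers, adjusted p = 0.0410). Its WT mean is below the low-value limit of 3.38, so its difference is open to how the background was set. The summed cholangiocyte and progenitor list overlapped, at 11.80 to 12.50 in TrxR1/Gsr-null and 11.55 to 12.25 in WT livers. Differences were positive for 1 of 8 endothelial, 1 of 7 stellate cell and fibroblast and 2 of 7 Kupffer cell and macrophage markers tested. They were positive for 3 of 4 cholangiocyte and progenitor markers and for the 1 lymphocyte marker tested. The part of these markers in the results was not tested. In bulk tissue, fewer cells of a type and less RNA per cell cannot be told apart.

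The question was how this family of reductases differs between livers labelled TrxR1/Gsr-null and WT livers. Akr1c13, an enzyme of the hydroxysteroid dehydrogenase branch, rose 2.19-fold, and Akr1e1, which reduces 1,5-anhydrofructose, fell to a level 2.55-fold lower. The other 5 members measured were not called. So 2 of 7 members were called, 1 in each direction, where 6.62% of all genes tested were called in either direction (4.47% higher, 2.15% lower), and both calls lay close to the threshold. The median difference of the 7 members was 0.033, against 0.096 over all genes tested, and 4 of the 7 differences were positive, against 60.1% of all. In 4 of the 7 the groups did not overlap, where 16.6% of all genes tested showed no overlap (10.7% with TrxR1/Gsr-null livers higher, 5.84% lower). By probe set, 5 of 11 lay wholly higher in TrxR1/Gsr-null livers, against 10.6% of 12470, and 1 wholly lower, where 15.7% did not overlap in either direction. In the fit over probe sets 1 of 11 was called, that of Akr1c13 (adjusted p = 0.0480), against 6.17% of all, and probe sets of 1 gene are not separate evidence. With 7 genes chosen with earlier results of these data known, these shares are descriptions.

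**Figure D1:**
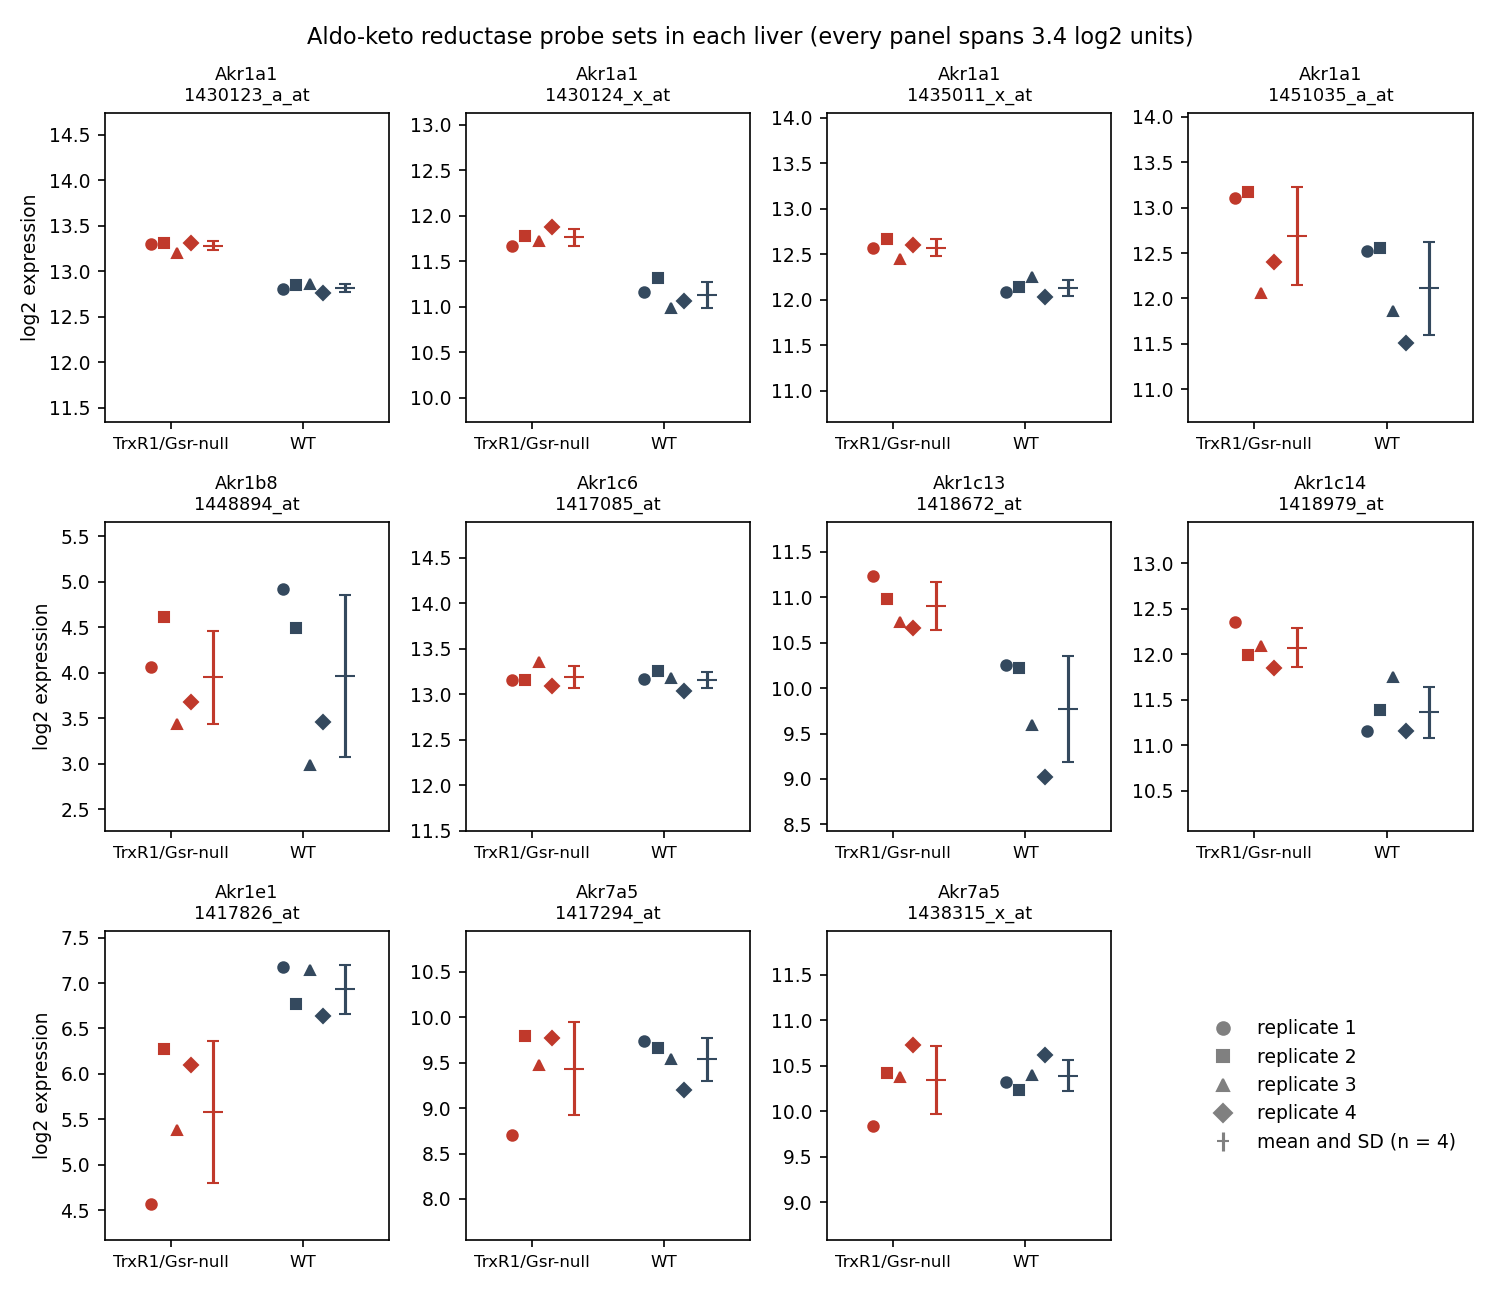
Log2 expression of each of the 11 aldo-keto reductase probe sets in the 4 TrxR1/Gsr-null livers (left, red) and the 4 WT livers (right, dark), with marker shapes for replicate numbers and bars for the mean and SD. The groups separate at 3 of 4 Akr1a1 probe sets and at Akr1c13, Akr1c14 and Akr1e1, and overlap for Akr1b8, Akr1c6 and Akr7a5.

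In the hydroxysteroid dehydrogenase branch, whose enzymes interconvert the alcohol and ketone forms of steroids and of many foreign compounds, Akr1c13 had log2 values of 11.23, 10.98, 10.73 and 10.66 in TrxR1/Gsr-null livers, against 10.26, 10.22, 9.59 and 9.02 in WT livers (replicates 1 to 4). Every TrxR1/Gsr-null liver was above every WT liver, and WT replicates 3 and 4 were the lowest. The difference was 1.13 ± 0.29 (SE, 95% interval 0.49 to 1.77), with limma adjusted p = 0.0442. Livers with the same replicate number differed by 0.98, 0.76, 1.14 and 1.64. Without WT replicates 3 and 4 the difference was 0.66, with adjusted p = 0.135. The call was also lost without TrxR1/Gsr-null replicate 1, 2, 3 or 4 (adjusted p = 0.123, 0.115, 0.0757 and 0.0758) and without WT replicate 3 or 4 (0.112 and 0.0662), with no filter on low values (0.0608), with the lowest 20% left out (0.0521) and with every array at the same median and interquartile range (difference 0.68, adjusted p = 0.0940).

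Akr1c13 has a close copy on the same chromosome, Akr1c12, and the array reads them with 1 probe set each and with another that the annotation pairs with both, which is therefore outside the 11. The likeness shows in the 250 bases before each gene's annotated start, taken from RefSeq on build GRCm38.p6 for Akr1c13 at chr13:4190937-4191186 on the plus strand and for Akr1c12 at chr13:4279400-4279649 on the minus strand. They are printed 5′ to 3′ because both genes had higher means in TrxR1/Gsr-null livers, and capitals mark bases that differ between them in the stretch they align over.
Akr1c13: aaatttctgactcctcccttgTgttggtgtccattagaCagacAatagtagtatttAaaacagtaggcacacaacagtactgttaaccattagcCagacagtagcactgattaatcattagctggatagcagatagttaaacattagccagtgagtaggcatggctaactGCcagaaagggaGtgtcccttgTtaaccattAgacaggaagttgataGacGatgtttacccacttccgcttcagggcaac
Akr1c12: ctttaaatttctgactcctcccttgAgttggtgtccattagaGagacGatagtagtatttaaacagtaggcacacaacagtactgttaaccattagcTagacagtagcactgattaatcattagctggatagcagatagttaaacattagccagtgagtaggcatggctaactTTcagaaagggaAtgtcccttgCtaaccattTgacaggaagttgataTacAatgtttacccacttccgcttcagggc
Of 247 aligned columns 235 were identical (95.1%), where the same stretch of Akr1c19, the member that lies between them on the chromosome and has no paired probe set, matched Akr1c13 at 61.3% of 256 columns.

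The probe set paired with both genes read 11.76, 11.53, 11.60 and 11.50 in TrxR1/Gsr-null livers, against 10.95, 10.74, 10.98 and 11.00 in WT livers. The groups did not overlap, and the values of WT replicates 3 and 4 were not low here. Its difference was 0.68 ± 0.16 (SE), 1.60-fold, with limma adjusted p = 0.0382 over the 12470 probe sets tested. The call was lost without any 1 array other than WT replicate 4 (adjusted p from 0.0634 to 0.108), and without WT replicates 3 and 4 the difference was 0.75 (adjusted p = 0.0684). It was also lost with arrays centred on their medians (adjusted p = 0.0687) and with every array at the same median and interquartile range, where the difference was 0.13 (adjusted p = 0.859). Akr1c12 at its own probe set had 9.76, 9.86, 9.44 and 9.52 in TrxR1/Gsr-null livers, against 9.27, 9.43, 9.12 and 8.99 in WT livers. Its difference of 0.44 ± 0.18 (SE) was not called (adjusted p = 0.185), although the groups did not overlap, and it was 0.29 without WT replicates 3 and 4 and 0.022 under that scaling. Probe sequences were not used here, so how far each probe set reads the other copy was not tested.

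Akr1c14, a 3-alpha-hydroxysteroid dehydrogenase in rodents, had 12.35, 11.99, 12.09 and 11.85 in TrxR1/Gsr-null livers, against 11.15, 11.39, 11.75 and 11.16 in WT livers. The groups did not overlap, with WT replicate 3 the nearest to the TrxR1/Gsr-null livers. The difference of 0.71 ± 0.20 (SE, 95% interval 0.26 to 1.15), 1.63-fold, was not called (adjusted p = 0.0653). It was called with array weights (adjusted p = 0.0157), with a spread that depends on the level (adjusted p = 0.0238) and with the mean of each gene's probe sets (adjusted p = 0.0454). Akr1c14 has 1 probe set, so averaging left its difference at 0.71 and changed only the other genes of the fit. With every array at the same median and interquartile range the difference was 0.13 (adjusted p = 0.857). Akr1c6, which reduces the 17-keto group of sex steroids, had 13.16, 13.16, 13.36 and 13.09 in TrxR1/Gsr-null livers, against 13.16, 13.25, 13.18 and 13.03 in WT livers. The groups overlapped almost fully, and the difference of 0.033 ± 0.16 (SE) had a 95% interval from -0.32 to 0.39.

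Akr1a1 is the aldehyde reductase that makes gulonate from glucuronate on the way to ascorbate, which mice make in liver. It had 4 probe sets, all with a higher mean in TrxR1/Gsr-null livers, and 3 of them with no overlap between groups. The brightest had 13.30, 13.32, 13.20 and 13.31 in TrxR1/Gsr-null livers, against 12.80, 12.84, 12.86 and 12.76 in WT livers. Both groups were tight, with SDs of 0.053 and 0.042, and the gap between them was several times the spread within them. The difference of 0.46 ± 0.15 (SE, 95% interval 0.13 to 0.80), 1.38-fold, was not called (adjusted p = 0.102). It was called where the spread assumed for a gene was let depend on its level (adjusted p = 0.00707) and with array weights (adjusted p = 0.0277).

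The other Akr1a1 probe sets gave similar sizes. The first of the _x_at kind, 1430124_x_at, lay between 11.66 and 11.88 in TrxR1/Gsr-null livers and between 10.98 and 11.32 in WT livers, a difference of 0.63 with adjusted p = 0.0510 over the probe sets tested and 0.0374 with no filter on low values, where it was the 1 member probe set called and 2.97% of all were. The probe set 1435011_x_at lay between 12.44 and 12.67 in TrxR1/Gsr-null livers and between 12.03 and 12.25 in WT livers, a difference of 0.44 with adjusted p = 0.137. The last, 1451035_a_at, had 13.10, 13.17, 12.06 and 12.40 in TrxR1/Gsr-null livers, against 12.52, 12.55, 11.86 and 11.51 in WT livers. There the groups overlapped, and replicates 3 and 4 were lower than replicates 1 and 2 in both genotypes. The difference of 0.57 was not called (adjusted p = 0.337), and without WT replicates 3 and 4 it was 0.15 (adjusted p = 0.848). When each array was scaled to the same median and interquartile range, the Akr1a1 difference turned to -0.19 (adjusted p = 0.792), or -0.054 relative to the median of all genes, which that scaling moved by -0.23.

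The aldose reductase-like and aflatoxin aldehyde reductase members were not called. Akr1b8, which reduces reactive lipid aldehydes, had 4.06, 4.62, 3.44 and 3.68 in TrxR1/Gsr-null livers, against 4.93, 4.49, 2.99 and 3.46 in WT livers. The groups overlapped, WT replicate 3 was below the low-value limit, and replicates 3 and 4 were lower than replicates 1 and 2 in both genotypes. The difference of -0.015 ± 0.42 (SE) had a 95% interval from -0.95 to 0.92. Without WT replicates 3 and 4 it was -0.76, which was not called either (adjusted p = 0.245). Akr7a5, which reduces aflatoxin dialdehyde and succinic semialdehyde, had 8.70, 9.79, 9.47 and 9.77 in TrxR1/Gsr-null livers, against 9.74, 9.67, 9.54 and 9.20 in WT livers. TrxR1/Gsr-null replicate 1 was the lowest of the 8, the groups overlapped, and the difference was -0.10 ± 0.26 (SE, 95% interval -0.68 to 0.48). Its second probe set averaged 10.34 ± 0.37 in TrxR1/Gsr-null and 10.39 ± 0.17 in WT livers (SD, n = 4 each), with TrxR1/Gsr-null replicate 1 the lowest there as well, at 9.84.

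Akr1e1, the 1,5-anhydrofructose reductase, an enzyme of a side route of glycogen breakdown, was the member called lower. It had 4.57, 6.28, 5.38 and 6.10 in TrxR1/Gsr-null livers, against 7.18, 6.77, 7.14 and 6.63 in WT livers. Every TrxR1/Gsr-null liver was below every WT liver, and the TrxR1/Gsr-null livers spread more widely, with an SD of 0.78 against 0.27. The difference was -1.35 ± 0.35 (SE, 95% interval -2.13 to -0.57), with limma adjusted p = 0.0467. With the replicate number as a block the adjusted p was 0.0574, and over the probe sets tested it was 0.0504. The call was kept without TrxR1/Gsr-null replicate 2 (adjusted p = 0.0383) and lost without replicate 1, 3 or 4 of that group (0.0804, 0.112 and 0.0553), without WT replicate 1, 2, 3 or 4 (0.0809, 0.0736, 0.119 and 0.0648) and without WT replicates 3 and 4 (0.132). It was also lost with no filter on low values (0.0690), with the lowest 20% left out (0.0573) and with array weights (0.0638).

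In RefSeq, 9 family genes follow each other on chromosome 13 in the order Akr1c14, Akr1c18, Akr1c13, Akr1c19, Akr1c12, Akr1c6, Akr1c20, Akr1c21 and Akr1e1. Called genes there lay in both directions. Akr1c18, between Akr1c14 and Akr1c13, is a 20-alpha-hydroxysteroid dehydrogenase that inactivates progesterone. It had 4.15, 4.11, 5.85 and 5.43 in TrxR1/Gsr-null livers, against 7.01, 5.67, 7.52 and 7.80 in WT livers. The groups overlapped through TrxR1/Gsr-null replicate 3 and WT replicate 2, while livers with the same number differed by -2.85, -1.56, -1.67 and -2.37. Akr1c18 fell, with a difference of -2.11 ± 0.52 (SE), 4.33-fold lower, and adjusted p = 0.0381, or 0.00358 with the replicate number as a block. The call was lost without WT replicates 3 and 4 (difference -1.45, adjusted p = 0.203), without TrxR1/Gsr-null replicate 1, 2 or 4 (adjusted p = 0.112, 0.109 and 0.0611) and without WT replicate 1, 3 or 4 (0.0597, 0.104 and 0.0875). Leaving the filter on low values out ended it too (0.0617).

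**Figure D2:**
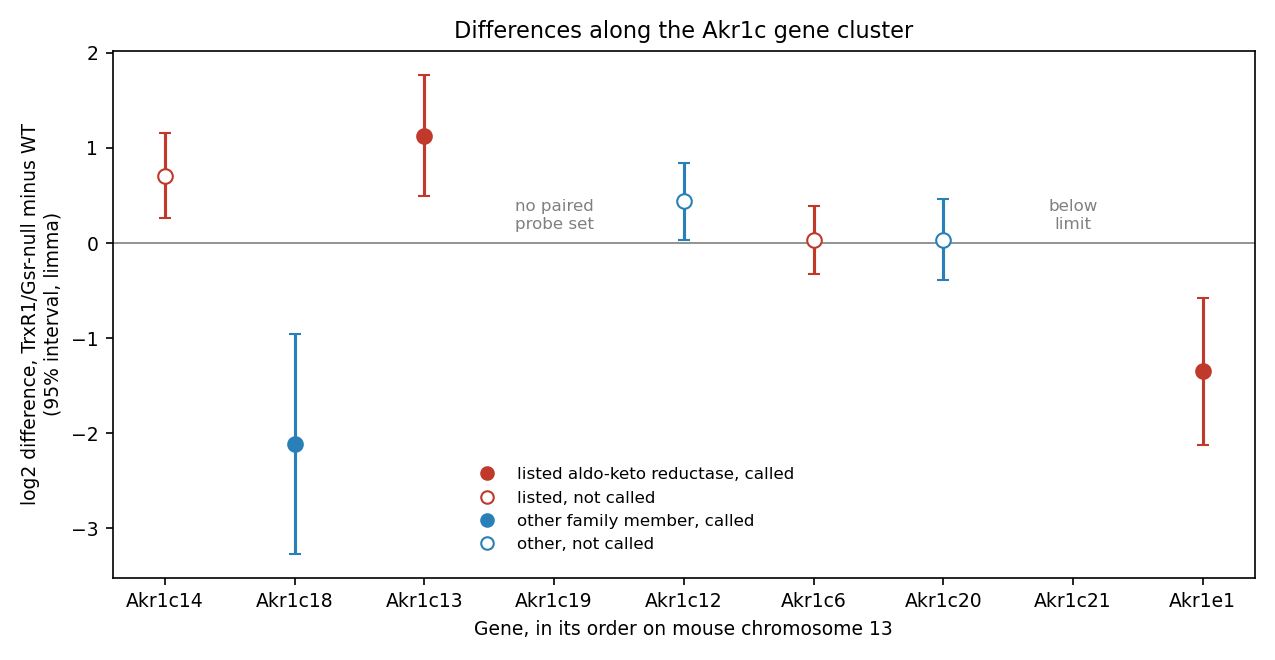
Log2 difference, TrxR1/Gsr-null minus WT, with its 95% interval from limma for the aldo-keto reductase genes of chromosome 13 in their order there, filled where called. Akr1c18 at -2.11 and Akr1e1 at -1.35 lie below 0, and Akr1c13 at 1.13 above it.

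Of the 10 other family genes listed, all have a probe set and 5 were tested, with Akr1c18 called lower and none called higher. Akr1d1, the 5-beta-reductase of bile acid synthesis, averaged 10.42 ± 0.45 in TrxR1/Gsr-null and 9.74 ± 0.32 in WT livers (SD, n = 4 each) and was not called (adjusted p = 0.153). Its dimmer probe set differed by 0.27 (adjusted p = 0.643 over the probe sets tested). Akr1c20 differed by 0.032 ± 0.19 (SE, adjusted p = 0.946) at its brighter probe set. At its dimmer one the difference was 0.77 ± 0.37, not called either (adjusted p = 0.260 over the probe sets tested). Kcnab3, a potassium channel beta subunit of the same fold, differed by -0.47 ± 0.42 (adjusted p = 0.546). Akr1b10, Akr1c21, Akr1cl, Kcnab1 and Kcnab2 were below the low-value limit.

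The core of the antioxidant response element, the site that Nrf2 binds with small Maf proteins, was searched as TGACNNNGC on both strands in RefSeq windows from 250 bases before to 50 bases after each start. None of the 7 measured members holds it in that window, and of the 9 members with a window only Akr1c19 does, where 12.4% of all 32851 windows hold it. TGACTCA, the AP-1 site, which can overlap that core, was in no member's window and in 5.20% of all. No match says only that these letters are not in these windows.

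By the size of the root mean square difference between profiles over the 8 arrays, each gene taken as its deviation from its own mean, the genes most like Akr1c13 were Pus7 (0.15), Usp33 (0.15) and Rnft1 (0.15 log2 units). Of these Pus7, a pseudouridine synthase, was called higher, by 1.26 ± 0.29 (SE, adjusted p = 0.0295). Those most like Akr1e1 were Rcl1 (0.30), Prkd3 (0.32) and Abhd16a (0.35 log2 units). Of these Prkd3, a protein kinase, was called lower, with 8.78 in TrxR1/Gsr-null and 10.34 in WT livers (adjusted p = 0.00503). Profiles were compared with the group difference in them, so like differences and calls in these genes follow from how they were picked. They are not separate evidence.

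Some reductases of other families that share substrates with the aldo-keto reductases had larger differences. Of 15 carbonyl and quinone reductases tested, 4 rose and none fell, with a list median of 0.055 against 0.096 over all genes. Cbr3, a carbonyl reductase, averaged 11.63 ± 0.66 in TrxR1/Gsr-null and 3.56 ± 0.71 in WT livers, Nqo1, a quinone reductase, 10.11 ± 0.15 and 5.52 ± 0.59, and Cbr1, a carbonyl reductase, 12.32 ± 0.36 and 9.60 ± 0.40 (SD, n = 4 each). Ptgr1, which reduces lipid-derived enones, was 11.0-fold higher (adjusted p = 0.000633). The first 3 were 270-fold, 24.0-fold and 6.57-fold higher (limma adjusted p = 3.81e-06, 1.34e-05 and 0.000211), and the fold of Cbr3 is open to how the background was set, since its WT mean lies near the low-value limit. The count was 4 under each of the 19 alternatives. Of 14 genes of aldehyde oxidation 2 rose and none fell (median 0.15), the aldehyde oxidase Aox1 16.4-fold and the retinaldehyde dehydrogenase Aldh1a1 1.71-fold. Aldh1a1 lost its call without TrxR1/Gsr-null replicate 1, 2 or 4 (adjusted p = 0.0501, 0.0526 and 0.0562) and with every array at the same median and interquartile range, where its difference was 0.15 (adjusted p = 0.843), against 0.78 as reported.

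Of 5 alcohol dehydrogenases and related oxidases tested, Xdh, the xanthine dehydrogenase, and Adh4, an alcohol dehydrogenase that acts on retinol, fell and none rose (median -0.45), by differences of -1.48 ± 0.30 and -0.92 ± 0.20 (SE). Without TrxR1/Gsr-null replicate 1, 2 or 4 or WT replicate 2 or 3, and without WT replicates 3 and 4, the count was 1, as the call of Adh4 was lost (adjusted p from 0.0548 to 0.0706). Of 9 genes around aldose and aldehyde reductase 3 rose and none fell (median -0.11). Ugdh and Ugp2, which make UDP-glucuronate and UDP-glucose upstream of Akr1a1, were 6.11-fold and 1.90-fold higher, and Cryl1, the gulonate dehydrogenase downstream of it, was 3.60-fold higher (adjusted p = 3.99e-05, 0.0171 and 0.00500). Ugp2, with a difference of 0.93, lost its call without TrxR1/Gsr-null replicate 4 (adjusted p = 0.0516), with _x_at probe sets kept (difference 0.73, adjusted p = 0.115) and with every array at the same median and interquartile range (difference 0.35, adjusted p = 0.643). Gulo, the last enzyme of ascorbate synthesis, averaged 9.83 ± 0.55 in TrxR1/Gsr-null and 10.69 ± 0.34 in WT livers and was not called (adjusted p = 0.108). With the replicate number as a block Gulo was called lower (difference -0.87, adjusted p = 0.0349), so that 1 gene of the list fell in that fit. With array weights Gulo and Khk, the ketohexokinase, were both called lower (adjusted p = 0.0248 and 0.0431).

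Of 15 steroid and bile acid genes next to the Akr1c branch, 1 rose and 1 fell (median -0.36). Cyp7b1, an oxysterol hydroxylase, was 5.27-fold higher, and Hsd17b11, a hydroxysteroid dehydrogenase, was 1.63-fold lower (adjusted p = 0.000457 and 0.0356). The call of Hsd17b11 was lost without any 1 array other than WT replicate 1 (adjusted p from 0.0647 to 0.0969), without WT replicates 3 and 4 (0.128) and with every array at the same median and interquartile range (difference -1.28, adjusted p = 0.0888). The count of genes that fell was 2 with TrxR1/Gsr-null replicate 3 left out, Cyp7a1 and Hsd3b3 in place of Hsd17b11, and 3 with array weights. Of 9 genes of NADPH supply 4 rose and none fell (median 0.69), namely Tkt (4.04-fold), Pgd (5.83-fold), Me1 (2.07-fold) and Nnt (2.26-fold). The count was 2 with every array at the same median and interquartile range, where Me1 (difference 0.59) and Nnt lost their calls. It was also 2 with _x_at probe sets kept, where Tkt (adjusted p = 0.0644) and Nnt lost theirs. Of 15 Nrf2 target genes with no aldo-keto reductase among them, 13 rose and none fell (median 2.11), and 8 rose with every array at the same median and interquartile range. Txnrd1, for which the livers are labelled null, is among those that rose, and its difference of 2.11 is itself the list median. Gpx2, a glutathione peroxidase, averaged 9.02 ± 0.58 in TrxR1/Gsr-null and 3.31 ± 0.55 in WT livers (SD, n = 4 each), and no exact fold is given, since its WT mean is below the low-value limit. Of 8 glutathione transferases that take on lipid aldehydes and aflatoxin products, 6 rose and none fell (median 2.14), led by Gsta2 (9.75-fold), Gstm4 (5.71-fold) and Gstm2 (6.83-fold). The lists overlap in genes, the Nrf2 and transferase lists were drawn up with their rise in these data known, and no list was tested as a set. Of 5 periportal hepatocyte markers 2 fell, Hal (difference -1.38) and Pck1 (difference -1.23). Cps1 (-0.44), Cyp2f2 (-0.0016) and Arg1 (0.054) were not called. The summed level overlapped slightly, at 14.369 to 14.833 in TrxR1/Gsr-null and 14.826 to 14.989 in WT livers. Of 6 pericentral markers none was called and 2 differences were positive, the larger that of Rhbg (0.87, limma adjusted p = 0.0633). The part of either list in these values was not tested.

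**Figure D3:**
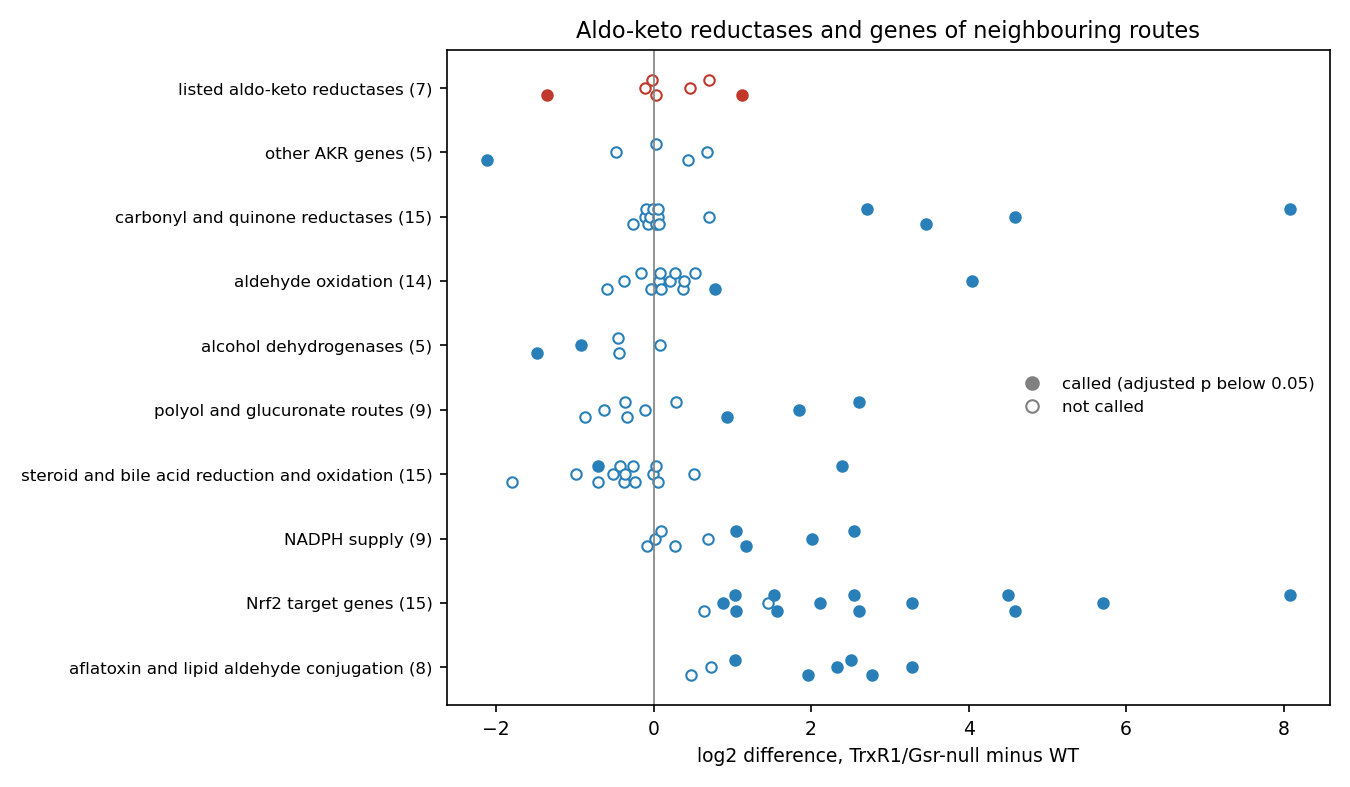
Log2 difference, TrxR1/Gsr-null minus WT, of each tested gene of the aldo-keto reductases and of 9 lists of neighbouring routes, filled where called, with the number of genes tested in brackets. The 7 aldo-keto reductases lie between -1.35 and 1.13, and the carbonyl and quinone reductases reach 8.08.

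How far each call rests on the processing differed by member. Over the 19 alternatives Akr1c13 was called in 9 with a difference from 0.66 to 1.29, and Akr1e1 in 7 with a difference from -1.58 to -1.01. Akr1c14 was called in 3 and Akr1a1 in 2 of them.

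**Figure D4:**
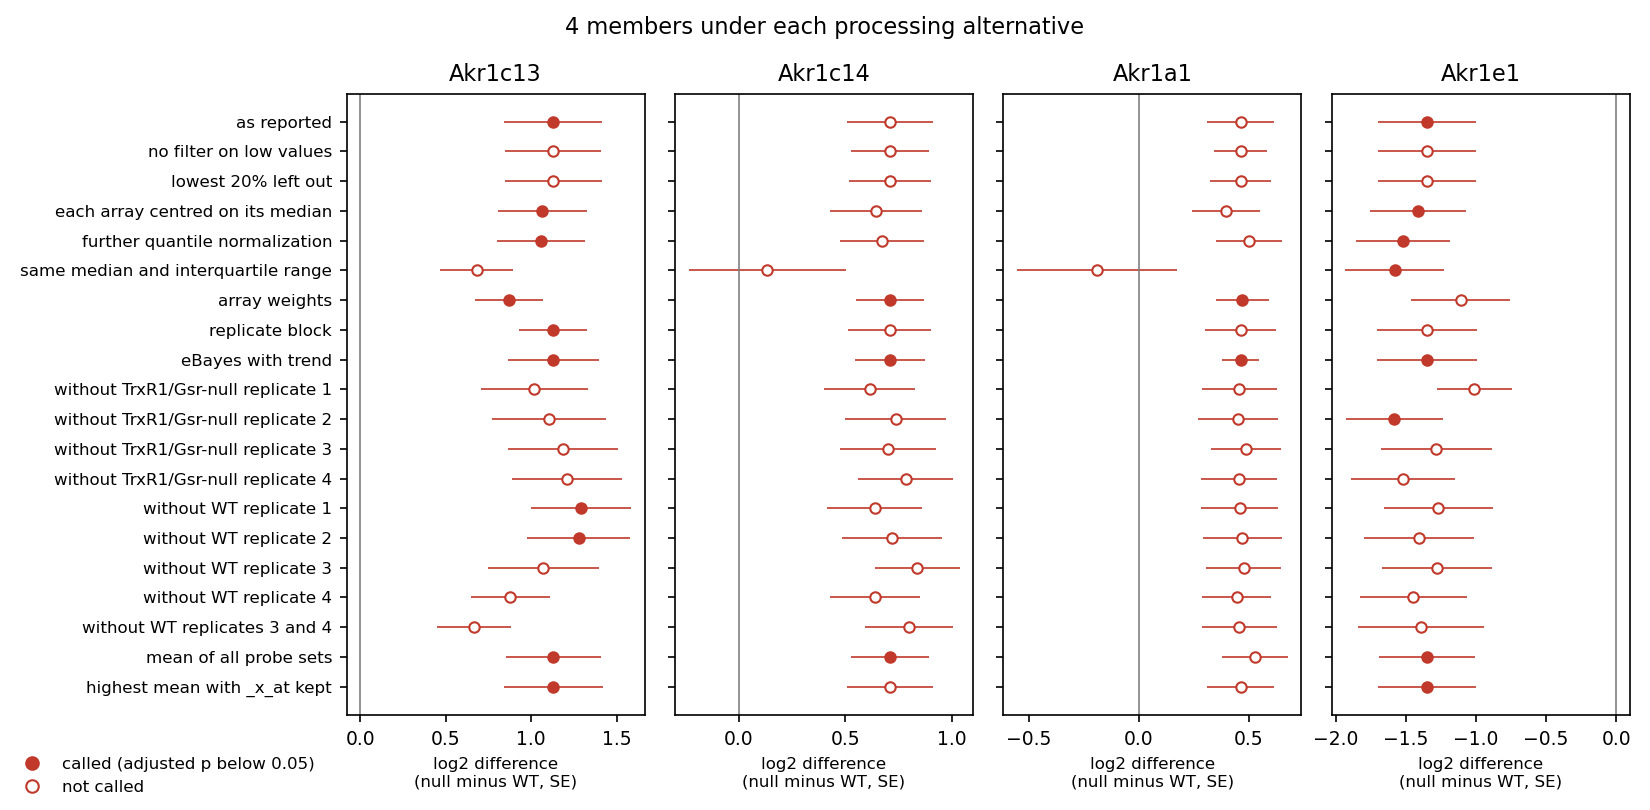
Log2 difference, TrxR1/Gsr-null minus WT, with its SE for Akr1c13, Akr1c14, Akr1a1 and Akr1e1 as reported and under each of 19 alternatives, filled where called. Akr1c13 and Akr1e1 keep their sign throughout, and Akr1a1 crosses 0 with every array at the same median and interquartile range.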

How the data were processed

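The deposited table gives log2 expression by array for each probe set, which the authors made with GCRMA per the submitters' processing notes. No version or setting is stated there, and the log2 scale follows from the range of the deposited values (0.53 to 14.6). GCRMA draws values near background together, so differences there depend on that correction. Symbols were updated by gene identifier through RefSeq (GRCm38.p6). The gene fit used probe sets with exactly 1 gene. Per gene, those other than _x_at were preferred and then the brightest kept (12393 genes). The lowest 40% by mean were left out unless 4 arrays exceeded the limit of 3.38 (7534 tested).

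The 4 TrxR1/Gsr-null and 4 WT arrays, labelled as biological replicates, entered a limma 3.58.1 model in R 4.3.3 (two-sided, no covariates). Another fit used 12470 probe sets above that limit, and one more all 22626 apart from controls. In simulated data with 200 of 7534 genes changed, the gene fit called 2.37% of log2 differences of 0.5, 38.2% of 1 and 87.7% of 2. Of the calls there 5.33% were false. No arrays were identical. Replicate numbers come from the titles. Deviations from the group means correlated at 0.21 to 0.37 between arrays of 1 number. Between arrays of different numbers they correlated at -0.40 to 0.40 (mean -0.092). The titles name no pairs, and the replicate number entered as a block only as an alternative. Lists, members and the rule for named genes (all members, up to 3 called genes per list and direction, the 3 nearest profiles) were chosen with earlier results of these data known. Ptgr1, Gulo, Khk, Cyp7a1, Hsd3b3, Nnt, Akr1d1, Akr1c12, Akr1c20, Kcnab3 and the marker genes were named outside that rule. Alternatives were the filter, scaling, array weights, block, trend, probe set per gene and left-out arrays.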

Additional observations from a re-analysis of the deposited data

Results flagged for a closer look

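At the brightest Akr1a1 probe set, TrxR1/Gsr-null replicate 3 stood apart from the other livers of its group, with 13.20 against 13.30 to 13.32, a gap of 0.856 of the group's range. It was the only one of 22 groups of 4 arrays, 11 probe sets in each genotype, past Dixon's critical value, and chance puts about 1 in 20 there. The liver still lay above all 4 WT livers (12.76 to 12.86), and without it the Akr1a1 difference was 0.49, against 0.46 with all arrays.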

How the results depend on the processing

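The 2 calls among the members depended on the settings. Against 1 gene called higher, the count was 0 with no filter on low values, with the lowest 20% left out, with every array at the same median and interquartile range and without WT replicates 3 and 4, 2 where a gene's probe sets were averaged, 3 with array weights, 3 with a spread that follows the level, and 0 to 1 with each array left out in turn. Against 1 called lower, it was 0 with no filter, with the lowest 20% left out and with array weights. It was also 0 without WT replicates 3 and 4 and with the replicate number as a block, and 0 to 1 with each array left out. The block left the other count at 1. Against 1 probe set called, it was 2 with arrays centred on their medians, 2 after quantile normalization, 5 with weights, 6 with the trend, 0 without WT replicates 3 and 4 and 0 to 1 with each array left out. With no filter or the milder one it was 1 as well, but 1430124_x_at of Akr1a1 in place of Akr1c13. In the family, signs turned only for differences that were not called. Under the same median and interquartile range these were Akr1a1 (-0.19), Akr1c6 (-0.63), Akr1c20 (-0.50), 1435011_x_at (-0.17) and 1451035_a_at (-0.012). With centred arrays Akr1c6 was -0.032 and Akr1c20 -0.033, and after quantile normalization Akr1c20 was -0.0079. With weights Akr1c6 was -0.042, Kcnab3 0.00077 and 1438315_x_at 0.040. Without WT replicates 3 and 4 Akr1c6 was -0.018, Kcnab3 0.15 and 1438315_x_at 0.065. With each array left out, Akr1b8 ran from -0.34 to 0.30, Akr1c6 from -0.023 to 0.067, Akr7a5 from -0.22 to 0.14, Akr1c20 from -0.067 to 0.12, Kcnab3 from -0.71 to 0.028 and 1438315_x_at from -0.18 to 0.12. Of all called genes 67.5% were higher, 53.6% after quantile normalization and 47.5% under the same median and interquartile range, which moved the median of all genes by -0.11 and -0.23. The cause of these changes was not tested. Signal near background limits Akr1b8 and Akr1c18.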
